A study of Saccharomyces cerevisiae with 6 samples.

Results

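The comparison described here sets cells of the budding yeast *Saccharomyces cerevisiae* treated with the antifungal drug nystatin against untreated cells, and it rests on 4 of the 6 arrays of the study. Its members were chosen by label: the 2 arrays of cultures given nystatin at 0.27 mg/L and the 2 arrays of the untreated control. All cultures were of the haploid strain BY4742 (MATα, his3Δ1, leu2Δ0, lys2Δ0 and ura3Δ0), grew for 24 h in YPD, a rich medium with glucose, and were then moved to fresh YPD for another 24 h at 30 °C, without addition for the control. The remaining 2 arrays hold cells given the same nystatin dose together with CdS QDs, quantum dots of cadmium sulphide, at 100 mg/L. In the study nystatin, at a dose below the one that inhibits growth, served to ease the entry of the QDs, so the comparison asks what that helper does by itself. Total RNA was hybridised to GeneChip Yeast Genome 2.0 arrays, on which a probe set is a group of short probes for one transcript. Aliquots of total RNA extract were put on the arrays of each condition. No source states that the arrays of a group came from separate cultures, so p-values measure the spread between arrays, which may be technical, and a difference between cultures cannot be told apart from an effect of the drug.

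Nystatin is a polyene. It binds ergosterol, the main sterol of fungal plasma membranes, and opens pores through which ions and small solutes leak. Yeast makes ergosterol in a long series of steps catalysed mainly by the ERG gene products, exports lipophilic drugs through ABC and major facilitator pumps, and takes up glucose by a family of hexose transporters whose genes follow the glucose supply. Cells that have used up glucose turn to ethanol, organic acids and fatty acids, and the genes for those pathways are held down while glucose is present.

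With nystatin alone some genes were higher and some lower than in the control, nearly all by small amounts. The glucose-induced transporter genes HXT1 and HXT3 and the glucose repressor genes MIG2 and MIG1 fell, together with genes of fatty acid oxidation, of the methylcitrate cycle and of amino acid and peptide uptake. Among genes for mitochondrial and cytosolic ribosomal proteins, ergosterol synthesis and glycolysis, more rose than fell. How many genes passed the test depended strongly on single arrays. The largest rise was that of YDL218W, a gene of uncharacterised function, at 3.28-fold, and the deepest fall that of HXT1, at 2.85-fold. In bulk RNA of a culture, a smaller share of cells in one state and less RNA per cell cannot be told apart, and since RMA equalises the distributions of the arrays, a change in the total RNA of a cell is not visible here.

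The platform table pairs 5498 probe sets with genes of *S. cerevisiae*. On each of the 6 arrays 98.8 to 99.2% of them lay above background, set at the 95th percentile of the fission yeast probe sets of that array (1.42 to 1.48 log2 units), for which no RNA was on the array. LYS2 and URA3, deleted in BY4742, were below background on all 4 arrays compared, LEU2 was above it on 2 of them, and HIS3, of which the his3Δ1 allele removes a part, read 8.41 to 8.63. The α-cell genes MF(ALPHA)1, MF(ALPHA)2, STE3 and SAG1 were above background on all 4 arrays, but so were all 6 a-cell genes examined. The mean 3′ minus 5′ signal of 7 control genes, a measure of RNA integrity, was 1.47 and 1.41 log2 units in the control and 1.45 and 1.45 with nystatin, so the groups overlapped. LYS2 and URA3 are also a caution on low signals, since they were listed 0.20 and 0.23 log2 units lower with nystatin, with limma adjusted p-values of 0.0204 and 0.0116, although the cells lack both genes. Both calls were lost without any 1 of the 4 arrays (adjusted p = 0.0625 to 0.125). Of the 40 probe sets below background on all 4 arrays, 5 passed the test as lower and 0 as higher.

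The shift over all genes was broad and shallow. The log2 fold changes of nystatin minus control had a median of −0.00514 and a standard deviation (SD) of 0.186, with 5% of probe sets under −0.313 and 5% above 0.268. Of the 5498 probe sets, 5395 (98.1%) had a log2 fold change under 0.5 in size, that is under 1.41-fold, and 4732 (86.1%) one under 0.25. The extremes were −1.51 and 1.71. For scale, nystatin with CdS QDs gave an SD of 0.682 against the same control arrays, and 75.4% of probe sets passed there.

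This shallow shift was nonetheless wider than the difference between arrays of one group. The difference between the 2 control arrays had an SD of 0.0898 over the probe sets and that between the 2 nystatin arrays 0.0954, whereas the 4 single differences of a nystatin and a control array had SDs of 0.186 to 0.208. A pair of differences that share no array, nystatin 1 minus control 1 and nystatin 2 minus control 2, correlated at r = 0.784 across the 5498 probe sets, and 4373 (79.5%) had the same sign in both. With the arrays exchanged r was 0.78 and 4225 (76.8%) had the same sign. These correlations run across genes, which are not independent replicates, and if the 2 arrays of a group came from one culture the points share that culture as well. The 1747 fission yeast probe sets, which match no RNA put on the arrays, had a median log2 fold change of −0.0165 and an SD of 0.148, with SDs of 0.207 and 0.214 between the replicate arrays, so dim probe sets varied more between replicates than the *S. cerevisiae* probe sets did.

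**Figure D1:**
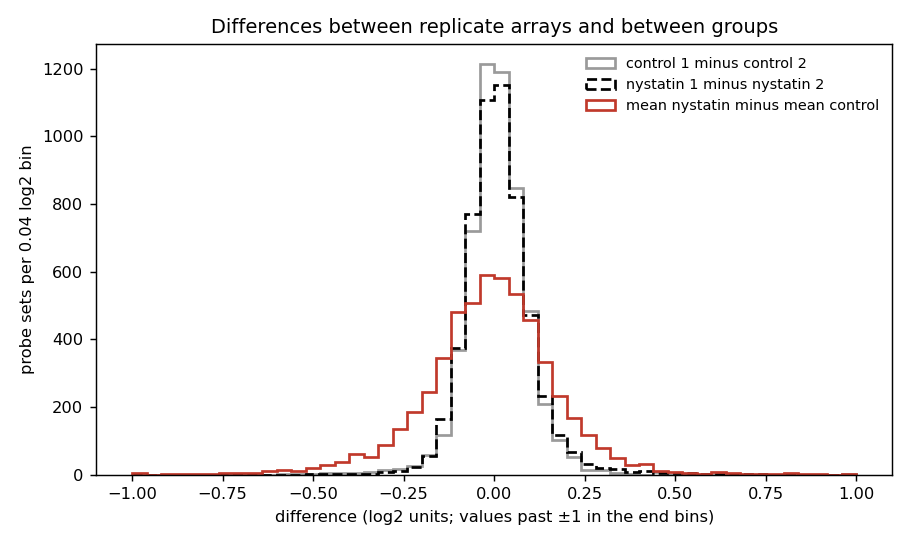
Histogram over 5498 *S. cerevisiae* probe sets of the difference between the 2 control arrays (grey), between the 2 nystatin arrays (black, dashed) and between the group means, nystatin minus control (red); the x axis is in log2 units and the y axis counts probe sets per bin of 0.04. The group difference has an SD of 0.186 and the replicate differences have SDs of 0.0898 and 0.0954.

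**Figure D2:**
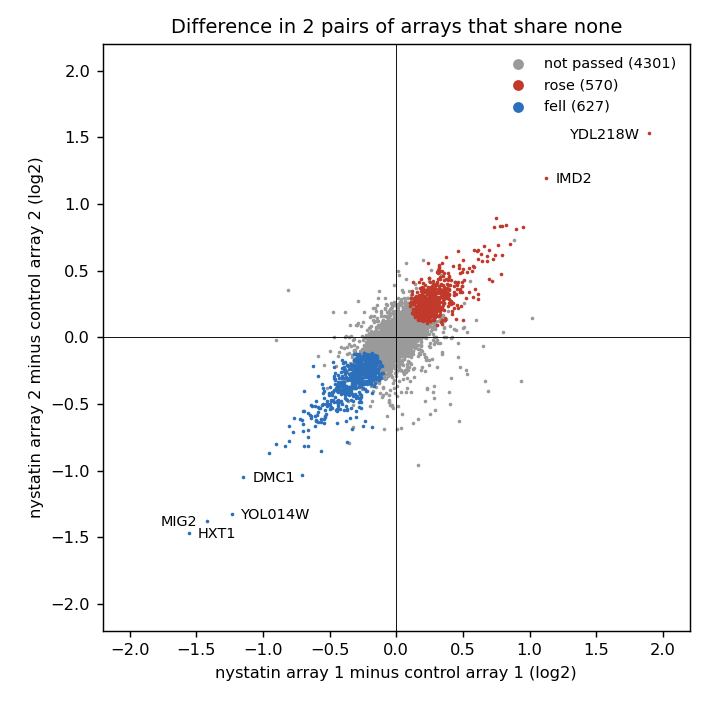
Each point is a probe set, placed by the log2 difference of nystatin array 1 and control array 1 (x axis) and of nystatin array 2 and control array 2 (y axis). Colour marks the 570 that rose and the 627 that fell, with the rest in grey; the 6 named genes lie far from the origin on the diagonal.

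In the words used here, a gene "rose" or "fell" if its Benjamini-Hochberg adjusted p in a limma fit over the 6 arrays was under 0.05. By that rule 1197 probe sets changed, 21.8% of those tested: 570 rose (10.4%) and 627 fell (11.4%). Their median change was 0.253 upwards and −0.277 downwards, and 1097 of the calls (91.6%) stayed under 0.5 log2 units in size. The smallest change that passed was 0.141. At least 0.5 was reached by 100 probe sets that passed, 36 of them higher and 64 lower, and by 3 that did not pass. In all 1197 the 2 nystatin arrays lay on one side of the 2 control arrays, but so they did in 3855 of the 5498 probe sets (70.1%). Separate arrays, stated below for single genes that passed, are thus no further support for a call. The study set thresholds on the fold change and on p without naming the test or an adjustment. With log2 fold changes of 1 or more in either direction, and with p under 0.01 before adjustment, 6 probe sets were left (0.109%), 2 higher and 4 lower.

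Among these 6, YDL218W read 7.65 and 7.89 on the control arrays and 9.55 and 9.42 with nystatin. Its rise was 1.71 (SE 0.10, adjusted p = 0.000484), and both nystatin arrays stood well above both controls. IMD2 encodes inosine monophosphate dehydrogenase, which makes the committed step to GTP. It read 4.49 and 4.59 in the control and 5.61 and 5.78 with nystatin, without overlap, a rise of 1.16 (SE 0.068, adjusted p = 0.000517). Its probes may also catch RNA of its near-identical relatives, so the value is uncertain as to the gene.

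On the falling side, HXT1, a low-affinity glucose transporter induced by high glucose, went from 5.80 and 5.79 to 4.24 and 4.33. It fell by 1.51 (SE 0.049, adjusted p = 8.14e-05), many times the gap between replicates. MIG2, a zinc-finger repressor of genes that glucose shuts off, went from 5.6 and 5.50 to 4.18 and 4.12 and fell by 1.4 (SE 0.056, adjusted p = 0.000109). The uncharacterised gene YOL014W was at 8.19 and 8.23 in the control and at 6.95 and 6.91 with nystatin. It fell by 1.28 (SE 0.051, adjusted p = 0.000109), with replicates almost on top of each other. DMC1, the recombinase of meiosis, fell by 1.10 (SE 0.065, adjusted p = 0.000517), from 8.10 and 7.97 to 6.95 and 6.93, and again the groups were far apart. The 6 calls held in each of the 16 alternative settings tried, including each array left out.

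**Figure D3:**
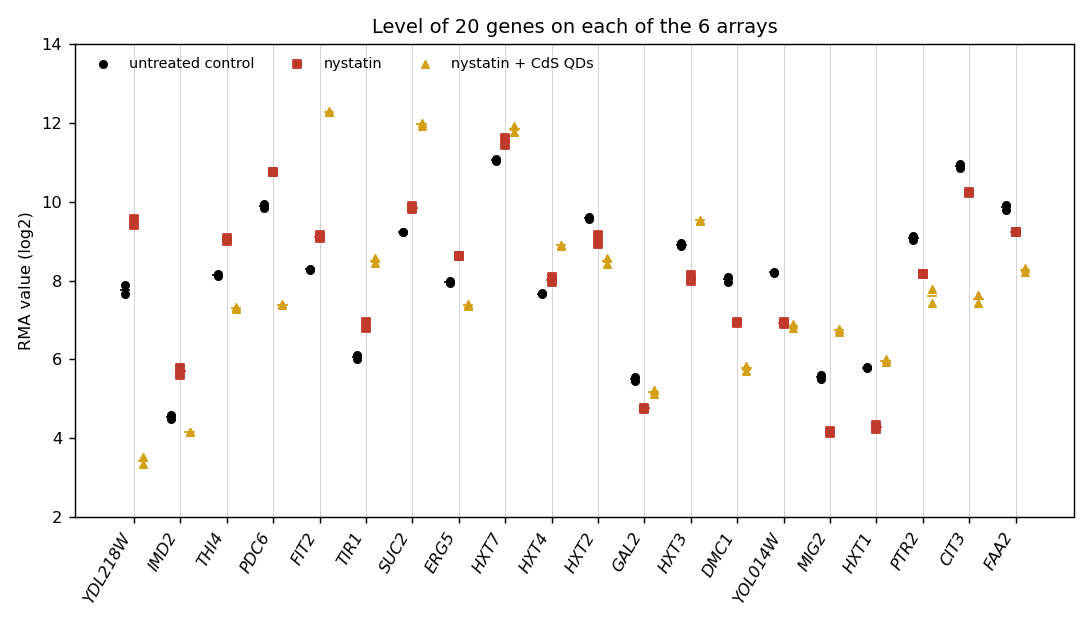
RMA values (log2, y axis) of 20 genes on each of the 6 arrays, with black circles for the untreated control, red squares for nystatin and yellow triangles for nystatin with CdS QDs; short lines are group means of 2 arrays. The control and nystatin arrays do not overlap for any gene drawn, HXT1 lying at 5.79 to 5.8 in the control and 4.24 to 4.33 with nystatin.

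Hexose transporters moved in opposite directions. Of 16 measured, 4 fell and 2 rose, and the median of the list was 0.0526 against −0.00552 over all genes. Counts without 1 array are given here and for the other lists in the order of control array 1, control array 2, nystatin array 1 and nystatin array 2, and 3, 3, 4 and 4 transporters fell and 0, 0, 1 and 1 rose without these. The median was 0.0071 without control array 1, 0.00949 without nystatin array 1, 0.0845 without nystatin array 2 and 0.0895 with quantile normalization repeated. HXT3, another low-affinity transporter, went from 8.88 and 8.95 to 7.98 and 8.14 and fell by 0.85 (SE 0.064, adjusted p = 0.00132). GAL2, the galactose permease, went from 5.46 and 5.56 to 4.77 and 4.75 and fell by 0.75 (SE 0.057, adjusted p = 0.00132). In both the 2 nystatin arrays were clearly the lower. HXT2, a transporter of higher affinity that is induced by low glucose, fell by 0.55 (SE 0.09, adjusted p = 0.00946). The risers were HXT4, at 7.66 and 7.67 and then 7.97 and 8.08, and the high-affinity HXT7, at 11.03 and 11.07 and then 11.63 and 11.44. They rose by 0.36 (SE 0.051, adjusted p = 0.00619) and 0.48 (SE 0.079, adjusted p = 0.00956). The HXT7 probe set may also detect the almost identical HXT6. HXT5, whose product serves slow-growing cells, read 11.36 and 11.45 in the control and 11.52 and 11.43 with nystatin, so its arrays overlapped. HXT1, HXT3 and GAL2 kept their calls in every setting. HXT2 lost its call without control array 1 (adjusted p = 0.082) or 2 (0.0585), HXT4 without control array 1 (0.0642), control array 2 (0.0532) or nystatin array 2 (0.0515), and HXT7 without control array 1 (0.0831), control array 2 (0.0603) or nystatin array 1 (0.0538).

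Among 43 regulators of glucose sensing and repression, 5 rose and 5 fell, shares of 11.6% each that lay at the background of 10.4 and 11.4%. Without each of the 4 arrays in that order, 0, 0, 1 and 0 rose and 2, 3, 4 and 3 fell. Besides MIG2, the fallers included its relative MIG1, the main glucose repressor, which went from 8.20 and 8.11 to 7.69 and 7.63 and fell by 0.50 (SE 0.051, adjusted p = 0.00297). SIP4, an activator of gluconeogenic genes, fell by 0.47 (SE 0.058, adjusted p = 0.00442), a call lost without control array 1 (adjusted p = 0.0518). The membrane glucose sensors SNF3 and RGT2 did not pass, at −0.07 and −0.18. SUC2, the invertase gene, is a classic target of glucose repression. It went from 9.23 and 9.23 to 9.81 and 9.88, a rise of 0.62 (SE 0.049, adjusted p = 0.00144) that every setting kept. MAL32, for maltase, rose by 0.43 (SE 0.046, adjusted p = 0.00301), on a probe set that it may share with its twin MAL12.

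In the list of carbon metabolism that glucose represses, more genes fell than rose. Of 35 measured, 17 fell, 4 rose (SUC2 and MAL32 among them) and 14 did not pass, with a median of −0.187. Without control array 1, control array 2, nystatin array 1 and nystatin array 2, 4, 6, 5 and 4 fell. CYB2, the mitochondrial lactate dehydrogenase, went from 10.55 and 10.52 to 10.00 and 10.02 and fell by 0.52 (SE 0.047, adjusted p = 0.00207). ICL1, isocitrate lyase of the glyoxylate cycle, fell by 0.40 (SE 0.055, adjusted p = 0.00538), but not without control array 1 (0.0578) or nystatin array 2 (0.0515). Both nystatin arrays were below both controls for each. The list of glycolysis and fermentation went the other way, with 10 of 30 higher, 2 lower and a median of 0.134 (0.0838 with quantile normalization repeated), though only 1, 1, 2 and 1 rose when those 4 arrays were left out in turn. PDC6, a minor pyruvate decarboxylase, led it, going from 9.85 and 9.93 to 10.75 and 10.75, a rise of 0.86 (SE 0.047, adjusted p = 0.000484).

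Of the 53 lists drawn up, that of fatty acid oxidation had the largest median fall. Yeast breaks down fatty acids in peroxisomes, and carnitine carries the acetyl units to mitochondria. Of 30 genes of the peroxisome and of fatty acid oxidation, 16 fell, 0 rose and 14 did not pass, with a median of −0.296. Leaving out control array 1, control array 2, nystatin array 1 and nystatin array 2 in turn, 7, 8, 11 and 7 fell. FAA2, which activates medium-chain fatty acids, went from 9.93 and 9.79 to 9.23 and 9.24 and fell by 0.62 (SE 0.06, adjusted p = 0.00239). FOX2, the multifunctional enzyme of the β-oxidation cycle, went from 11.38 and 11.34 to 10.96 and 10.95 and fell by 0.41 (SE 0.043, adjusted p = 0.00301). The 2 groups stood apart in both genes.

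Genes around that cycle fell as well. IDP3, the peroxisomal isocitrate dehydrogenase that supplies NADPH, fell by 0.54 (SE 0.056, adjusted p = 0.00297). CRC1, the mitochondrial carnitine carrier, went from 10.49 and 10.45 to 9.87 and 9.78 and fell by 0.64 (SE 0.061, adjusted p = 0.00239). YAT2, a carnitine acetyltransferase, fell by 0.62 (SE 0.055, adjusted p = 0.00207) and kept its call in every setting. Outside the list, FAA4, an acyl-CoA synthetase for imported long-chain fatty acids, fell by 0.59 (SE 0.061, adjusted p = 0.00297). FAT3, needed for uptake of fatty acids, fell by 0.82 (SE 0.13, adjusted p = 0.00796), but not without control array 1 (adjusted p = 0.0714), control array 2 (0.0546) or nystatin array 2 (0.0665).

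The methylcitrate cycle disposes of propionyl-CoA in mitochondria, and its 3 genes measured here all fell. CIT3, its citrate synthase, went from 10.95 and 10.87 to 10.25 and 10.21 and fell by 0.68 (SE 0.073, adjusted p = 0.0032). PDH1, the dehydratase, went from 11.25 and 11.18 to 10.58 and 10.61 and fell by 0.61 (SE 0.049, adjusted p = 0.0015). ICL2, the lyase that closes the cycle, went from 9.86 and 9.84 to 9.28 and 9.32 and fell by 0.55 (SE 0.043, adjusted p = 0.00139). No nystatin array reached the control range in any of them. These 3 genes count among the fallers of the next list. In that list 32% fell, beside 11.4% over all probe sets. Over the list of the TCA and methylcitrate cycle, 8 of 25 fell and 0 rose, with a median of −0.0641, and the counts without control array 1, control array 2, nystatin array 1 and nystatin array 2 were 3, 4, 3 and 3.

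Ergosterol, the ligand of nystatin, is made by the next group. Of 26 genes of ergosterol synthesis 10 rose, 0 fell and 16 did not pass, with a median of 0.124. ERG5, the C-22 sterol desaturase of a late step, was the clearest. It went from 7.93 and 7.98 to 8.62 and 8.63, a rise of 0.67 (SE 0.045, adjusted p = 0.000839) kept in every setting. ERG25, the C-4 methyl oxidase, went from 10.46 and 10.60 to 10.96 and 10.94, without overlap, a rise of 0.42 (SE 0.077, adjusted p = 0.0132). ERG28, a scaffold for the C-4 demethylation enzymes, rose by 0.37 (SE 0.046, adjusted p = 0.00442). ERG24, the C-14 reductase, rose by 0.36 (SE 0.049, adjusted p = 0.00531). HMG1, an HMG-CoA reductase that controls entry into the pathway, rose by 0.30 (SE 0.041, adjusted p = 0.00556). ERG11, the target of azole drugs, went from 9.62 and 9.56 to 9.81 and 9.79, a rise of 0.20 (SE 0.046, adjusted p = 0.0243).

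The number of ergosterol genes that passed rested on single arrays. Without control array 1, control array 2, nystatin array 1 and nystatin array 2, 1, 3, 5 and 2 of the 26 rose, while the median stayed between 0.0921 and 0.153. ERG28 lost its call without control array 1 (adjusted p = 0.0526), ERG24 without control array 1 (0.056) or nystatin array 2 (0.0518), and HMG1 without control array 1 (0.0557), control array 2 (0.0539) or nystatin array 2 (0.0515). ERG25 lost it without control array 1 (0.102), control array 2 (0.0521), nystatin array 1 (0.0736) or nystatin array 2 (0.0844). ERG11 lost it without control array 1 (0.0971), control array 2 (0.14), nystatin array 1 (0.114) or nystatin array 2 (0.11). Regulation, uptake and esterification of sterols gave 2 genes higher and 2 lower of 29, a total share of 13.8%, under the 21.8% of all probe sets.

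Multidrug transporters and their regulators included 9 risers and 4 fallers among 30 genes, with a median of −0.00399. The total share was 43.3%, beside 21.8% over all probe sets. Without control array 2, nystatin array 1 or nystatin array 2, however, fallers outnumbered risers. PDR5, the main ABC pump for lipophilic drugs, went from 10.30 and 10.32 to 10.61 and 10.58, a rise of 0.29 (SE 0.047, adjusted p = 0.00964). Its relative PDR15 went from 9.89 and 9.89 to 10.34 and 10.30, a rise of 0.43 (SE 0.07, adjusted p = 0.00949). For both genes the replicate arrays lay close together and the groups apart. RSB1, which moves sphingoid bases out of the membrane, rose by 0.40 (SE 0.066, adjusted p = 0.0098). AZR1, a major facilitator pump for azoles, rose by 0.65 (SE 0.13, adjusted p = 0.0189), and TPO4, a polyamine exporter, fell by 0.37 (SE 0.046, adjusted p = 0.0044). Left out in turn, control array 1, control array 2, nystatin array 1 and nystatin array 2 reduced the risers to 1, 1, 1 and 0. The adjusted p-values were then 0.0833, 0.0634, 0.0633 and 0.0637 for PDR5, 0.0756, 0.0652, 0.0622 and 0.0665 for PDR15, and 0.108, 0.104, 0.102 and 0.0875 for AZR1. RSB1 lost its call without control array 2 (0.065), nystatin array 1 (0.0538) or nystatin array 2 (0.0779), and TPO4 without control array 1 (0.0526).

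Many genes for the uptake and use of nitrogen fell. Of 22 genes for amino acid sensing and permeases, 11 fell and 1 rose, with a median of −0.238. Of 39 genes under nitrogen catabolite repression, by which good nitrogen sources silence the use of poor ones, 17 fell and 2 rose, with a median of −0.206. The lists share members. Without control array 1, control array 2, nystatin array 1 and nystatin array 2, 4, 5, 6 and 6 of the former and 3, 6, 11 and 3 of the latter fell.

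PTR2, the importer of di- and tripeptides, fell the furthest of these, from 9.13 and 9.03 to 8.18 and 8.17, by 0.91 (SE 0.11, adjusted p = 0.00369). The broad amino acid permease AGP1 went from 9.18 and 9.18 to 8.47 and 8.56 and fell by 0.66 (SE 0.064, adjusted p = 0.00239). DIP5, the permease for glutamate and aspartate, fell by 0.62 (SE 0.065, adjusted p = 0.00297). Both nystatin arrays lay below both control arrays in each of the 3. ALP1, a basic amino acid permease, fell by 0.61 (SE 0.065, adjusted p = 0.00301). MEP2, an ammonium permease and sensor, fell by 0.46 (SE 0.058, adjusted p = 0.00442), and GAP1, the general amino acid permease, went from 9.50 and 9.50 to 9.03 and 9.01 and fell by 0.47 (SE 0.075, adjusted p = 0.00862). GAP1 lost its call without control array 1 (adjusted p = 0.0731), control array 2 (0.0605), nystatin array 1 (0.052) or nystatin array 2 (0.0694). Synthesis of amino acids under the activator Gcn4 moved both ways, with 6 of 45 higher and 8 lower (2, 2, 3 and 3 higher and 2, 2, 4 and 2 lower without each array), LYS4 of lysine synthesis falling by 0.59 (SE 0.063, adjusted p = 0.00301) and ARG1 of arginine synthesis by 0.49 (SE 0.051, adjusted p = 0.00298).

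Genes for ribosomal proteins rose more often than they fell. Of 71 mitochondrial ribosomal protein genes 35 rose and 1 fell, with a median of 0.196. MRPL50 went from 7.80 and 7.84 to 8.27 and 8.39, a rise of 0.51 (SE 0.057, adjusted p = 0.00333). MRPL1 went from 7.44 and 7.45 to 7.85 and 7.88, a rise of 0.42 (SE 0.05, adjusted p = 0.00384). MRPL24 and MRPL44 rose by 0.37 (SE 0.045, adjusted p = 0.0042) and 0.35 (SE 0.044, adjusted p = 0.00445). Each is a protein of the large mitochondrial subunit, and its 2 nystatin arrays lay above its 2 control arrays. With control array 1, control array 2, nystatin array 1 and nystatin array 2 left out, 6, 7, 20 and 6 of the 71 rose, with medians of 0.184 to 0.22.

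Cytosolic ribosomal protein genes shifted less. In total 25.2% of them passed, near the 21.8% over all probe sets. By direction 24.4% rose and 0.787% fell, beside 10.4 and 11.4% over all probe sets. Of 127 measured, 31 rose and 1 fell, with a median of 0.124, and 0, 2, 1 and 0 rose without control array 1, control array 2, nystatin array 1 and nystatin array 2. Many of these genes come in near-identical pairs, which probes may not separate. The next list adds initiation factors to the subunits of RNA polymerase I and III. RRN3, RRN6, RRN7, RRN10 and RRN11 are such factors that fell and are not subunits. RNA polymerase I and III, which transcribe rRNA and tRNA, went the other way, with 11 of 28 lower, 0 higher and a median of −0.117, and with counts of 0, 1, 3 and 1 without the same arrays. RPC19, a subunit that both enzymes share, went from 7.67 and 7.63 to 7.07 and 7.01 and fell by 0.61 (SE 0.076, adjusted p = 0.0044), a call lost without control array 1 (0.0516). Ribosome biogenesis factors had 10 lower and 1 higher of 90, shares of 11.1% and 1.11% beside the background of 11.4 and 10.4%. Their median was −0.0772, and between −0.084 and −0.0564 with 1 array left out. Outside that list, ZPR1, which helps to fold elongation factor eEF1A, fell by 0.74 (SE 0.086, adjusted p = 0.00369).

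Iron genes did not move as one. Of 33, 5 rose and 6 fell. Without control array 1, control array 2, nystatin array 1 and nystatin array 2, 4, 4, 4 and 4 rose and 1, 2, 2 and 1 fell. FIT2 and FIT3 encode cell wall mannoproteins that retain siderophore iron. FIT2 went from 8.26 and 8.30 to 9.09 and 9.15, a rise of 0.83 (SE 0.045, adjusted p = 0.000484), and FIT3 rose by 0.40 (SE 0.046, adjusted p = 0.00346). FET4, a low-affinity carrier of iron and other metals, went from 6.03 and 6.01 to 6.65 and 6.66, a rise of 0.63 (SE 0.043, adjusted p = 0.000839). TIS11, which destabilises mRNAs when iron is short, rose by 0.42 (SE 0.05, adjusted p = 0.00395). In contrast HMX1, the haem oxygenase, went from 7.14 and 7.16 to 6.61 and 6.62 and fell by 0.54 (SE 0.046, adjusted p = 0.00179). The copper importer gene CTR1 went from 5.83 and 5.85 to 6.57 and 6.67, a rise of 0.78 (SE 0.093, adjusted p = 0.00385). For all 6 the groups stood apart, and all but FIT3, TIS11 and CTR1 held in every setting.

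The larger changes included genes of the cell surface and of stress, whose lists went both ways. TIR1, a cold- and anaerobically induced wall mannoprotein, went from 6.02 and 6.10 to 6.81 and 6.94, a rise of 0.81 (SE 0.068, adjusted p = 0.00169). CYC7, the cytochrome c isoform of low oxygen, rose by 0.82 (SE 0.077, adjusted p = 0.00231), and ANB1, the hypoxic form of eIF5A, by 0.44 (SE 0.049, adjusted p = 0.0033). PAU4, of a large seripauperin family whose members probes may not separate, fell by 0.58 (SE 0.044, adjusted p = 0.00132), and the TIR, DAN and hypoxic list as a whole had 3 higher and 2 lower of 22 (3, 3, 3 and 3 higher and 1, 1, 1 and 1 lower without each compared array). HSP30, a plasma membrane protein that restrains the proton pump Pma1, went from 11.18 and 11.17 to 11.96 and 12.01, a rise of 0.81 (SE 0.049, adjusted p = 0.000517). The list of hydrophilins and stress-induced small proteins, which holds HSP30, had 6 higher and 4 lower of 34 (1, 1, 3 and 1 higher and 0, 0, 0 and 0 lower without each compared array), and that of plasma membrane ion pumps 4 higher and 2 lower of 28 (1, 1, 1 and 1 higher and 0, 0, 0 and 0 lower). YRO2, a relative of HSP30, rose by 0.77 (SE 0.053, adjusted p = 0.000839) and PMA2, a second proton pump gene, by 0.62 (SE 0.065, adjusted p = 0.00297). The main pump gene PMA1 went from 9.98 and 9.99 to 9.82 and 9.85 and fell by 0.15 (SE 0.043, adjusted p = 0.0487). That call was lost when each array was centred on its median (adjusted p = 0.0525). It was also lost without control array 1, control array 2, nystatin array 1 or nystatin array 2. PMA1 lost its call in 8 of the 16 alternatives, the ones above included. In all of these genes the 2 groups were separate. Of the TIR, DAN and hypoxic list 22.7% passed, and of plasma membrane ion pumps 21.4%, near the 21.8% over all probe sets. The share was 29.4% for hydrophilins and stress-induced small proteins.

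Cell wall genes were balanced, with 7 of 48 higher and 7 lower, a total share of 29.2% beside 21.8% over all probe sets. Without control array 1, control array 2, nystatin array 1 and nystatin array 2, 3, 3, 4 and 3 were higher and 0, 2, 4 and 1 lower. PIR3, a wall protein linked to β-glucan, rose by 0.61 (SE 0.056, adjusted p = 0.00229), and NCA3, of the SUN family of wall proteins, by 0.67 (SE 0.074, adjusted p = 0.00322). CWP1, a mannoprotein, went from 10.29 and 10.33 to 9.73 and 9.47 and fell by 0.71 (SE 0.095, adjusted p = 0.00514), a call lost without control array 1 (adjusted p = 0.0526) or 2 (0.0516). The cell wall integrity pathway, the usual response to wall damage, had 2 higher and 4 lower of 29 (1, 1, 1 and 1 higher and 0, 0, 2 and 0 lower in that order). The share that passed was 20.7% for that pathway and 13.9% for pheromone signalling and cell fusion, both under the 21.8% of all probe sets. The genes for the α-factor pheromone rose, MF(ALPHA)1 from 7.51 and 7.66 to 8.27 and 8.36, by 0.73 (SE 0.066, adjusted p = 0.00221), and MF(ALPHA)2 by 0.43 (SE 0.043, adjusted p = 0.00268). Pheromone signalling and cell fusion had 3 higher and 2 lower of 36 (0, 0, 0 and 0 higher and 1, 0, 1 and 0 lower).

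Among the remaining larger changes, THI4, which makes the thiazole of thiamine, went from 8.12 and 8.17 to 9.08 and 9.0, a rise of 0.89 (SE 0.05, adjusted p = 0.000484). SNZ1, of vitamin B6 synthesis, rose by 0.48 (SE 0.055, adjusted p = 0.00346). In the list that holds both genes 25% passed, near the 21.8% over all probe sets. The list of thiamine, vitamin B6 and biotin had 5 higher and 1 lower of 24, and 2, 2, 2 and 3 were higher without control array 1, control array 2, nystatin array 1 and nystatin array 2. ECM10, a mitochondrial Hsp70, rose by 0.71 (SE 0.079, adjusted p = 0.0033), SOK2, a regulator of filamentous growth, by 0.62 (SE 0.047, adjusted p = 0.00132), and OYE3, an NADPH oxidoreductase of the oxidative response, by 0.60 (SE 0.072, adjusted p = 0.00385). RCK1, a protein kinase of the oxidative stress response, went from 6.26 and 6.17 to 5.46 and 5.39 and fell by 0.79 (SE 0.081, adjusted p = 0.00297). AEP3, which stabilises a mitochondrial mRNA for ATP synthase subunits, fell by 0.74 (SE 0.069, adjusted p = 0.00234), AAH1, adenine deaminase, by 0.62 (SE 0.059, adjusted p = 0.00234), and the G1 cyclin gene CLN1 by 0.45 (SE 0.043, adjusted p = 0.00239). No array of one group entered the range of the other in any of these genes, which holds for all 1197 probe sets that passed.

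The 53 lists therefore differed in how much of them passed. At the low end, with fewer calls than the background of 21.8%, were ER folding and the unfolded protein response (1 of 28), aminoacyl-tRNA synthetases (1 of 20), translation factors (2 of 35), the proteasome (2 of 34), vacuolar proteases and endocytosis (2 of 26) and the respiratory chain with ATP synthase (4 of 38). At the other end, glucose-repressed carbon metabolism (60%), the Ehrlich pathway with ammonia exporters (55%), permeases (54.5%), fatty acid oxidation (53.3%) and mitochondrial ribosomal proteins (50.7%) passed. Some of these lists share fallers: CAT2, CRC1 and YAT2 are in those of carbon metabolism and fatty acid oxidation. ATO2 and ATO3 are in those of carbon metabolism and the Ehrlich pathway. These are descriptions of lists drawn up with results known, and no list was tested as a set. Of the 1197 probe sets that changed, 455 belonged to at least 1 list.

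**Figure D4:**
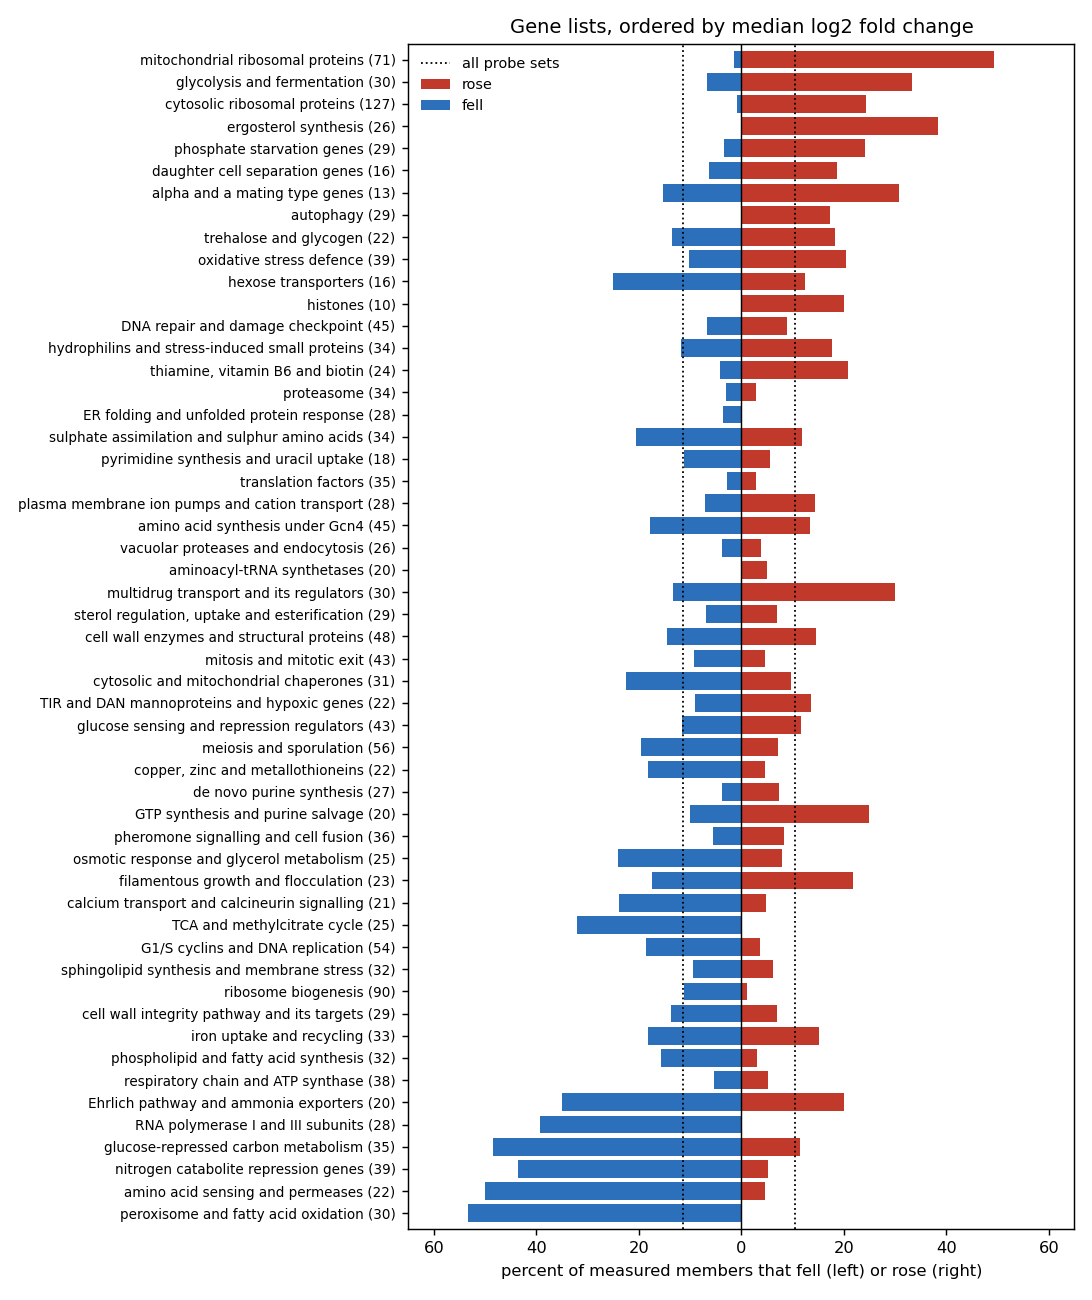
For each of 53 gene lists (measured members in brackets), bars give the percent of measured members that fell (blue, left) and rose (red, right), ordered by the median log2 fold change; dotted lines give the shares over all 5498 probe sets, 11.4% lower and 10.4% higher. Fatty acid oxidation, at the bottom, has 53.3% lower and 0% higher, and mitochondrial ribosomal proteins, at the top, have 49.3% higher.

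Probe sets that passed were found at every level of expression and on every chromosome. In 10 bins of equal size by mean level, 18.9 to 26% of probe sets passed. The dimmest bin, below 5.48, stood apart in direction, with a median of −0.0649, 30 higher and 74 lower, while the medians of the other bins lay between −0.0233 and 0.0117. The low readings of the deleted genes LYS2 and URA3 fall in that bin, and what part low signal plays in its excess of lower calls was not tested. Among the 16 chromosomes the medians ran from −0.0211 to 0.0125 and the share that passed from 17.4% (IV) to 27.7% (IX). The 380 probe sets of the 15 outermost annotated genes at each chromosome end had a share of 22.1% and an SD of 0.224, against 21.7% and 0.183 elsewhere.

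Leaving out arrays moved the number of calls strongly and the spread of the fold changes little. With 1 array of the 4 missing, its group was represented by a lone array taken to vary like the others. Without control array 1, 81 probe sets were higher and 87 lower. Without control array 2, the counts were 101 and 130, without nystatin array 1, 169 and 245, and without nystatin array 2, 88 and 103. Most of those calls were already among the 1197, namely 167 of 168, 226 of 231, 389 of 414 and 188 of 191. The SD of the log2 fold changes stayed between 0.186 and 0.198, and 6, 6, 7 and 6 probe sets were past a log2 fold change of 1. Leaving out either array of nystatin with CdS QDs gave 746 higher and 825 lower, the same as a fit of the 4 arrays alone, since a lone array of that group adds nothing to the estimate of the spread.

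A core of 136 probe sets (11.4% of the 1197) passed in all 6 of these fits, 60 higher and 76 lower. The core held 71 of the 100 that had changed by at least 0.5 log2 units (71%) but only 65 of the 1097 smaller ones (5.93%). None of the 1197 changed sign, which their separate arrays already fix. The way the spread was estimated, and which probe sets entered the fit and the adjustment, also moved the counts. Without empirical Bayes moderation, which borrows the variance from other genes, 105 were higher and 84 lower, and with all 10928 probe sets of the array in the fit, dim ones included, 21 and 22. Of the 86 genes named here that passed, LYS2 and URA3 included, 25 passed in all 16 alternatives, 37 more passed in each fit without an array but not in each other setting, and 24 lost the call without at least 1 array.

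**Figure D5:**
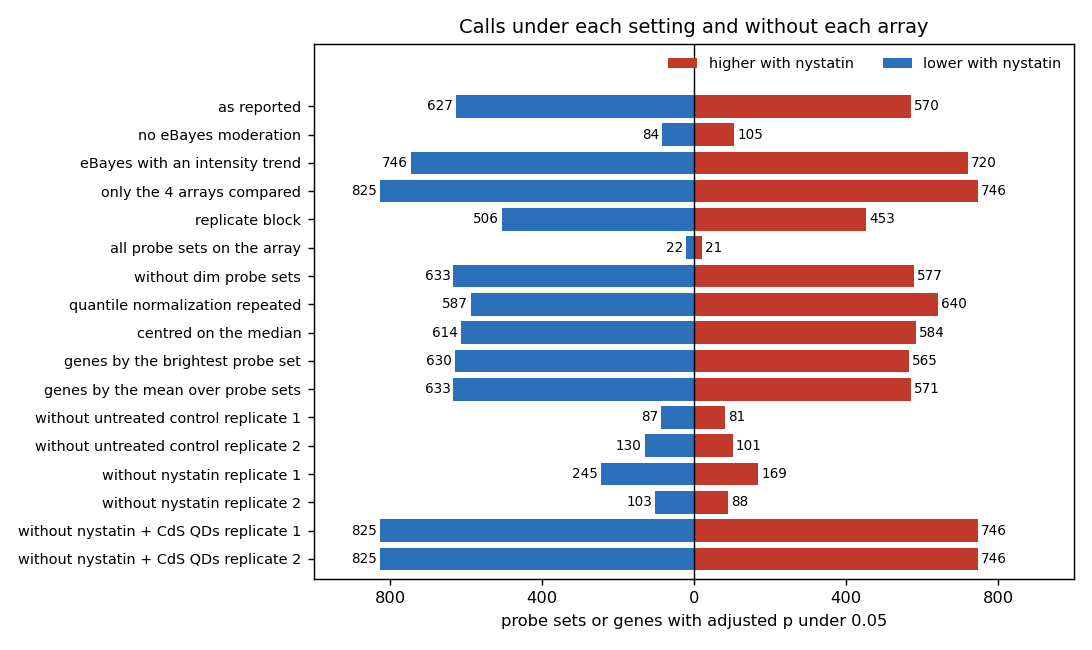
Number of probe sets (or genes, where the setting names genes) with a limma adjusted p under 0.05, higher with nystatin to the right and lower to the left, as reported and under 16 other settings. The counts run from 21 and 22 with all probe sets in the fit to 746 and 825 with the 4 compared arrays alone.

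The cells given nystatin with CdS QDs show where the named genes stood once the QDs were present. That comparison uses the same 2 control arrays, so the values are set side by side and no agreement between them is counted. HXT1, at 4.24 and 4.33 with nystatin alone, read 5.94 and 6.0 with the QDs, and MIG2, at 4.18 and 4.12, read 6.77 and 6.70, in both cases above the control. YDL218W, at 9.55 and 9.42, read 3.34 and 3.51, far below the control. YOL014W was at 6.81 and 6.90, near its level with nystatin alone. FIT2 stood at 12.29 and 12.27, TIR1 at 8.44 and 8.57 and MF(ALPHA)2 at 8.58 and 8.55, each above both other groups. CIT3 stood at 7.44 and 7.64, DMC1 at 5.71 and 5.84 and FAA2 at 8.22 and 8.31, each below both other groups. ERG5, at 7.41 and 7.36, PDC6, at 7.37 and 7.41, and PMA2, at 4.82 and 4.98, lay below the control, whereas nystatin alone had put them above it.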

How the data were processed

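Values of 6 GeneChip arrays of strain BY4742 were used, of which the 2 nystatin arrays were compared with the 2 of the untreated control. The deposited log2 values are the authors' RMA output from Affymetrix Expression Console: perfect-match probes, background correction, quantile normalization over the arrays and a summary per probe set. They were not remade from scans. The platform table and R64 gene names identified the genes. Probe sets for fission yeast or controls, or without a listed gene, stayed out of the main fit. A gene in a list is given by its brightest probe set. The labels' dose of nystatin is used, and the study's methods give a slightly lower one. One mean per group was fitted over the 6 arrays in limma 3.58.1 under R 4.3.3 (3 residual and 3.8 prior degrees of freedom), with two-sided tests of nystatin minus control and Benjamini-Hochberg adjustment over 5498 probe sets. SE is the standard error of the log2 fold change, and every value in log2 units is an RMA value or a difference of them. Precision is limited by the 2 arrays per group.

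The comparison, the lists and the named genes were chosen with earlier results of these data known. Lists came from general knowledge of yeast. Named genes were taken from the 15 highest and 15 lowest that passed with separate arrays, the genes the study names for nystatin, the lists of sterol, drug, hexose, glucose and GTP genes, and the 5 members of each other list with the smallest adjusted p. GAP1, ICL1 and PMA1 were named outside that rule after their values were seen. YDR366C and IMD1, which the study also names, have no probe set of their own in the table used and were not analysed here. The alternatives were no moderation, an intensity trend, the 4 arrays alone, a replicate block, all probe sets, no dim probe sets, repeated quantile normalization, centring, 2 ways of counting genes, other thresholds and each array left out. The fit was tested on simulated data. Promoter motifs were not analysed here. Summaries used Python 3.11.15 (pandas 2.3.3, numpy 2.4.6), and plots used matplotlib 3.10.9.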

Additional observations from a re-analysis of the deposited data

Results flagged for a closer look

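Probe sets without a listed gene entered no count above. Of 282 such probe sets above background on all 4 arrays, 9 had an adjusted p under 0.05 in the limma fit over all probe sets, and 2 of these had a log2 fold change of at least 1. Probe set 1778878_s_at read 3.23 and 3.14 in the control and 4.34 and 4.49 with nystatin, higher by 1.23 (adjusted p = 0.0361), and 2.74 and 2.92 with CdS QDs. Probe set 1777645_at read 6.30 and 6.25 in the control and 7.55 and 7.34 with nystatin, higher by 1.17 (adjusted p = 0.0438), and 5.11 and 5.27 with CdS QDs. Both were noted because the signal lies outside the genes compared. What they detect is not annotated in the tables used here.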

How the results depend on the processing

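The size of the shift depended little on the processing and the number of calls depended on it strongly. Against 570 probe sets higher and 627 lower, the limma fit gave 105 and 84 without moderation, 21 and 22 with all probe sets of the array, 159 and 184 at an adjusted p under 0.01, and 870 higher (913 lower) at 0.10. With 1 array left out the counts ran from 81 to 746 higher and from 87 to 825 lower, the probe sets past a log2 fold change of 1 from 6 to 7, and the SD from 0.186 to 0.198. A threshold of 0.5 in place of 1 log2 unit gave 100 probe sets (103 with no p), and one of 0.8 gave 16 (17 with no p). An intensity trend, the 4 arrays alone, no dim probe sets, repeated quantile normalization, centring and other units of counting kept both counts within 1.5 times. The cause of the low counts was not tested. With the replicate number as a block, 453 probe sets were higher and 506 lower, of which 919 were among the 1197, and the risers went from 31 to 16 among cytosolic ribosomal protein genes and from 5 to 1 among autophagy genes. No source states whether arrays of one number belong together. The differences between replicates 1 and 2 correlated across probe sets at 0.0249 (control and nystatin), 0.00828 (control and QDs) and −0.0511 (nystatin and QDs). Such values cannot show whether arrays of one number shared a culture or a batch. No alternative turned the direction of a changed gene named here. Their separate arrays already fix this when an array is left out. Settings that change only the spread or the adjustment leave the fold change as it was. With 2 arrays a group, few arrays limit the precision, and near background a difference of 0.2 was listed even for deleted genes.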

Other observations

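In some further groups more genes rose than fell. Of 29 phosphate starvation genes 7 rose and 1 fell, with a median of 0.11, and the faller was PHO90, a low-affinity phosphate transporter, which went from 8.70 and 8.68 to 8.28 and 8.21 and fell by 0.45 (SE 0.046, adjusted p = 0.00297). Of 29 autophagy genes 5 rose and 0 fell, with a median of 0.0935 (0.0582 without nystatin array 1), and the 17.2% that passed lay under the background of 21.8%. Of 39 genes of oxidative stress defence 8 rose and 4 fell, with a median of 0.055 (0.0875 without nystatin array 1). The share that passed was 27.6% for phosphate starvation and 30.8% for oxidative stress defence. For phosphate starvation the excess of risers was gone without control array 1, control array 2, nystatin array 1 or nystatin array 2. When control array 1, control array 2, nystatin array 1 and nystatin array 2 were left out in turn, 0, 0, 1 and 0 phosphate genes, 0, 0, 0 and 1 autophagy genes and 2, 2, 5 and 2 oxidative stress genes rose.

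Meiosis and sporulation genes, used in sporulating diploids, had 4 higher and 11 lower of 56 with a median of −0.0166, and genes of the G1 to S transition and DNA replication 2 higher and 10 lower of 54 with a median of −0.0695. The shares that passed, 26.8% and 22.2%, stand beside 21.8% over all probe sets. Left out in the same order, the 4 arrays gave 3, 4, 9 and 4 lower for the former and 1, 2, 4 and 1 lower for the latter.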
